A study of Mus musculus with 48 samples.

Results

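Interleukin-6 (IL-6) family cytokines and their receptors were followed in cells of the neurovascular unit (NVU) after experimental ischemic stroke. The members were 5 ligands, *Il6*, *Il11*, *Lif*, *Osm* and *Clcf1*, and 5 receptor chains, *Il6ra*, *Il11ra1*, *Lifr*, *Osmr* and *Il6st*. They were picked by gene symbol as members of this family, and all 10 were found, each in 1 row of the 24973 genes of the deposited table. RNA was sequenced in bulk from sorted microglia, astrocytes, pericytes and endothelial cells of adult C57BL/6 wild-type male mice aged 12 to 15 weeks. The animals underwent transient occlusion of the right middle cerebral artery (tMCAO), with 1 h of occlusion and 23 h of reperfusion. The ipsilateral, ischemic hemisphere was set against the contralateral hemisphere of the same mice, which served as control in place of sham-operated animals, so that effects of the stroke on the contralateral side are part of the baseline. Each of the 8 groups had 6 replicates, and each replicate pooled 3 to 4 mice. Microglia were gated as CD45 low and CD11b positive, endothelial cells by VE-cadherin, pericytes by NG2 and PDGFRβ, and astrocytes by high ACSA2, the last 3 gates without CD45.

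IL-6 family cytokines are secreted proteins that share the signal-transducing receptor chain gp130, encoded by *Il6st*. IL-6 and IL-11 first bind a private α-receptor (*Il6ra* or *Il11ra1*), whereas leukemia inhibitory factor (*Lif*) and oncostatin M (*Osm*) bind signalling chains that pair with gp130, the products of *Lifr* and *Osmr*. Cardiotrophin-like cytokine factor 1 (*Clcf1*) acts through the ciliary neurotrophic factor receptor together with LIFR and gp130. The assembled complexes activate Janus kinases and the transcription factor STAT3, and *Socs3* is the classical feedback inhibitor. In the injured brain this pathway is best known for the acute-phase response, reactive gliosis and the reaction of vessels to inflammation.

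The cytokine and receptor genes lie on 8 chromosomes of the mouse genome (GRCm38, coordinates of the deposited table). *Il6* (ENSMUSG00000025746) spans chr5:30013114-30019981 on the plus strand and *Il11* (ENSMUSG00000004371) spans chr7:4772373-4782857 on the minus strand. *Osm* (ENSMUSG00000058755; chr11:4236420-4241026) and *Lif* (ENSMUSG00000034394; chr11:4257557-4272514) are neighbours on the plus strand of chromosome 11, and *Clcf1* (ENSMUSG00000040663) lies at chr19:4214238-4223490. Among the receptors, *Osmr* (ENSMUSG00000022146; chr15:6813577-6874969, minus) and *Lifr* (ENSMUSG00000054263; chr15:7129559-7197489, plus) lie close to each other on chromosome 15. *Il6ra* (ENSMUSG00000027947) lies at chr3:89864059-89913196, *Il11ra1* (ENSMUSG00000073889) at chr4:41699989-41769474 and *Il6st* (ENSMUSG00000021756) at chr13:112464070-112510086. *Il11ra1* has near-identical gene copies in the mouse genome, and reads that mapped to several places were left out of the authors' counts, so its level is uncertain.

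The ligands *Il6*, *Il11* and *Lif*, whose values did not overlap between hemispheres in pericytes, are shown with the 250 bases before a RefSeq transcript start (GRCm38.p6). The bases are written 5′ to 3′ on the strand of the gene. The share of all genes without such overlap was not computed, so this choice of ligands is not a result. Capitals mark matches, on either strand, to a motif searched by its letters: TGANTCA for AP-1, GGGNN followed directly by TTTCC for NF-kB, TTGCNNAA for C/EBP, TGACGTCA for the cAMP response element and TTCNNNGAA for STAT factors. These windows are chr5:30012864-30013113 (plus) for *Il6*, chr7:4778142-4778391 (minus) for *Il11* and chr11:4257318-4257567 (plus) for *Lif*. For *Il11* the promoter of the second of 2 annotated starts is given, as the other window held no match.
Il6: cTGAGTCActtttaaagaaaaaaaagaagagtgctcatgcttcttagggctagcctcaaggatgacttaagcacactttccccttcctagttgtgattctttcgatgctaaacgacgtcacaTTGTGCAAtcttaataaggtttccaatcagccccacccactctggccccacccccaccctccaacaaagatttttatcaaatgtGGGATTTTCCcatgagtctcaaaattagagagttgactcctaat
Il11: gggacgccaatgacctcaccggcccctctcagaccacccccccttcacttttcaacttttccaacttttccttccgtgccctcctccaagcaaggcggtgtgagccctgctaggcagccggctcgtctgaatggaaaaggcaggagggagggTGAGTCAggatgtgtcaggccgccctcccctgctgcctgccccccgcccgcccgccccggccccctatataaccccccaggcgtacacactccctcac
Lif: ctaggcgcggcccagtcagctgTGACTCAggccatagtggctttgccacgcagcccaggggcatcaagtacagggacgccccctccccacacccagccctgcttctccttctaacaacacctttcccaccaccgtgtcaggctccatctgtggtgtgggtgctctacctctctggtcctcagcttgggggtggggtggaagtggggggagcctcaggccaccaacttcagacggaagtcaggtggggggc
The *Il6* window held an AP-1 match at positions -249 to -243 from the start, a C/EBP match at -128 to -121 and an NF-kB match at -44 to -35. The AP-1 match lay at -98 to -92 in *Il11* and at -228 to -222 in *Lif*. None of the matches overlapped another. The table gave 11 windows for 8 of the members, 2 each for *Il11*, *Il11ra1* and *Lifr* (*Osm* and *Clcf1* had none). Of these windows 3 held the AP-1 letters and 1 each the NF-kB and C/EBP letters, beside 6.75%, 1.41% and 9.56% of 32851 promoter windows of the same length. The letters for the cAMP response element (1.55% of windows) and for STAT factors (7.02%) were found in 0 of the 11. A match describes the sequence only and was not tested as a binding site.

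The libraries held an estimated 4950000 to 17080000 reads on genes, with sums of normalized counts from 10549900 to 16942165. A single read was worth 0.669 to 2.36 normalized counts, the coarsest step being in replicate 3 of ipsilateral microglia, so that values under about 7.08 rest on at most 3 reads there. For the 12 ipsilateral pericyte and microglia libraries the sample titles and the column names gave opposite cell types. The column names were used, because under this assignment each of the 4 cell types had 4 of 4 defining markers at which its lowest library exceeded every library of other types. RNA of other cells was present in some libraries. In pericyte libraries the summed level of 4 smooth muscle markers (*Acta2*, *Myh11*, *Cnn1* and *Tagln*) was 305671 to 472420 contralaterally and 140102 to 323604 ipsilaterally, lower in 6 of 6 pairs, against 34058 to 92716 for 4 pericyte markers. In astrocyte libraries 4 oligodendrocyte markers summed to 31112 to 350941, against 41095 to 121715 for 4 astrocyte markers. Ipsilateral microglial marker RNA (8 genes, as a percentage of the mean of ipsilateral microglia) was 2.25 to 16.1% in endothelial, 4.90 to 21.1% in pericyte and 2.33 to 8.03% in astrocyte libraries of replicates 1 to 4, but 0.275 to 0.848% in those of replicates 5 and 6. In microglia themselves the 8 microglial markers summed to 400002 to 484642 contralaterally and 189644 to 336214 ipsilaterally, lower in 6 of 6 pairs, while 5 markers of monocytes and other macrophages summed to 292 to 1574 and 1047 to 2735, higher in 5 of 6 pairs. Markers of neutrophils (6 genes) were higher ipsilaterally in 6 of 6 pairs of endothelial cells, pericytes and astrocytes and in 1 of 6 pairs of microglia. Their sum was already 6408 to 7956 in contralateral microglia, against 0 to 1726 in contralateral libraries of the other types. In microglia it therefore cannot show whether neutrophil RNA was gained. The part of RNA of other cells in the changes of the members was not tested.

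Between the hemispheres, the ligands *Il6* and *Il11* were called in pericytes, and the ligands *Osm* and *Clcf1* and the receptors *Il6ra* and *Lifr* in microglia. A call of regulation required a limma adjusted p no higher than 0.05, a change by 1.5-fold or more, and over 10 normalized counts in each of the 6 libraries on 1 side or on both. In pericytes, 2 of the 10 members were called higher (*Il6* and *Il11*), where 0.441% of 13597 genes were called higher and 1.02% in either direction. In microglia, 1 of 9 members tested was called higher (*Osm*), against 4.29% of 13300 genes. The 3 members called lower in microglia were *Clcf1*, *Il6ra* and *Lifr*, against 6.27% of genes called lower and 10.6% called in either direction. In endothelial cells 0 of 9 members tested were called, where limma called 0.362% of genes higher and 0.491% in either direction, and 3 members had an unadjusted p under 0.05, as had 11.9% of all genes. Likewise in astrocytes limma called 0 of 10 members (0.334% of genes higher, 0.341% in either direction), although 5 had an unadjusted p under 0.05 (9.28% of genes) and 2, *Il6* and *Osmr*, were called once the replicate was included as a block, with which 1.59% of genes were called. The median log2 fold change of the members tested was 1.98 in astrocytes, 1.11 in pericytes, 0.33 in endothelial cells and 0.32 in microglia, beside medians over all genes of -0.06, -0.04, -0.03 and -0.18. These are bulk values per sorted population, in which a shift in the mixture of cells and a change of RNA per cell cannot be told apart.

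**Figure D1:**
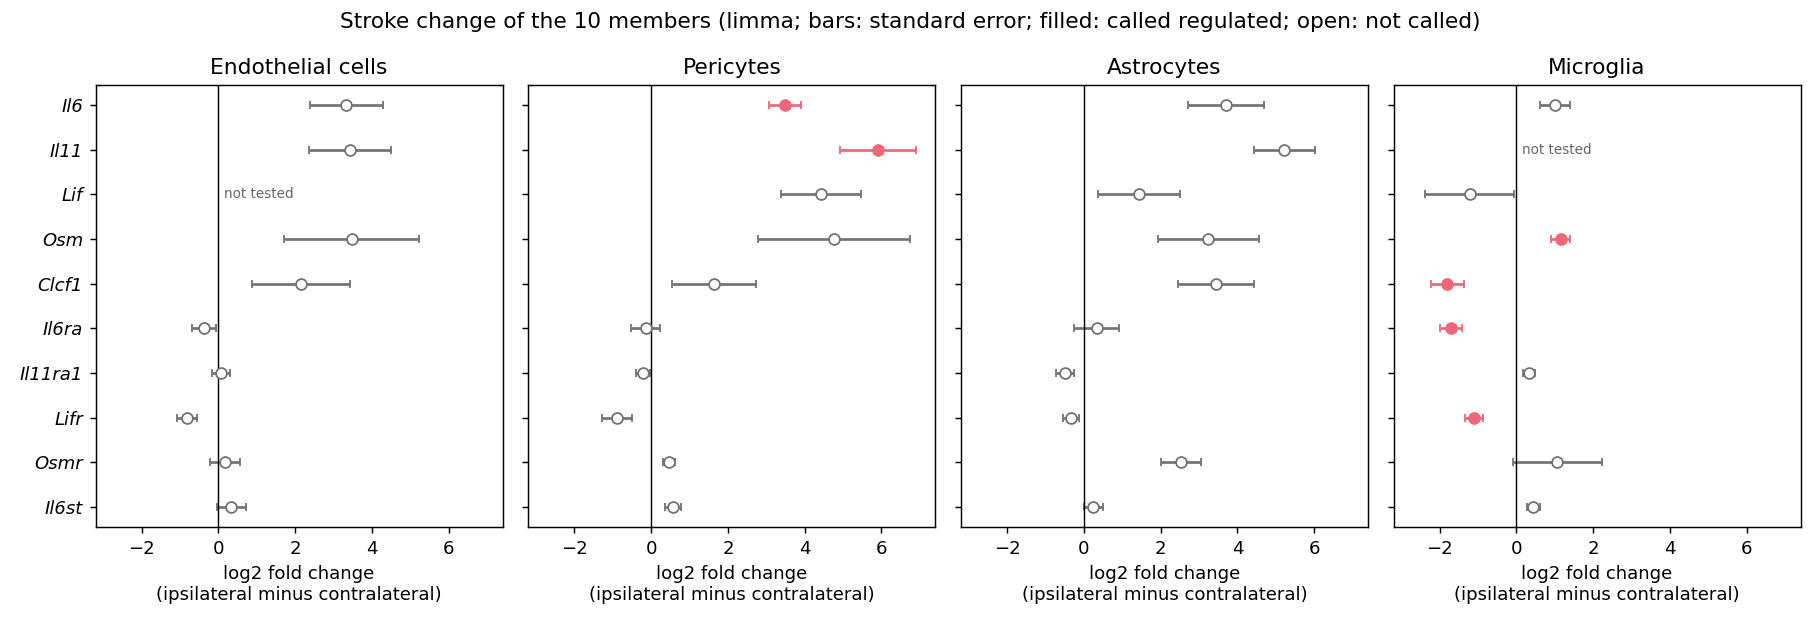
log2 fold change (ipsilateral minus contralateral, on the log2(normalized count + 1) scale) of the 10 members in each of the 4 cell types, with the standard error from limma as bars (6 against 6 libraries). *Il11* in microglia and *Lif* in endothelial cells were not tested and have no fitted value. Filled points passed the call and open points did not: *Il6* and *Il11* in pericytes and *Osm* in microglia lie right of 0, and *Clcf1*, *Il6ra* and *Lifr* in microglia lie left of it.

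*Il6* RNA, coding for the prototypic cytokine of the family, was highest in ipsilateral pericytes. The 6 contralateral pericyte libraries held between 108 and 450 normalized counts (median 168), and the 6 ipsilateral libraries between 1235 and 5110 (median 1784.5). Hence the groups did not overlap, and each ipsilateral library exceeded its contralateral partner. The mean rose 11.3-fold, from 229.7 ± 139 to 2605 ± 1585 (SD, n = 6 each), with a log2 fold change of 3.50 (SE 0.42, limma adjusted p = 0.00379). The call held when any replicate was left out. Replicates 5 and 6, the ipsilateral pericyte libraries with the least microglial marker RNA, had the highest *Il6* values, 4068 and 5110, or 564% and 709% of the mean of ipsilateral microglia. The other 4 replicates, with more of this RNA, held 171% to 251% of it, and the call also held over replicates 1 to 4 alone (log2 fold change 2.67, adjusted p = 0.0327). Smooth muscle marker RNA was lower and fibroblast marker RNA was higher (in 4 of 6 pairs) on the ipsilateral side of these pericyte libraries, and the part of either in the *Il6* value was not tested.

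In the other 3 cell types *Il6* was also higher on average ipsilaterally, but no call was made. In endothelial cells, contralateral values of 1 to 32 (median 8) stood against ipsilateral values of 15 to 212 (median 80.5), higher in 6 of 6 pairs, with a log2 fold change of 3.33 (SE 0.94, adjusted p = 0.153) that was 2.16 with a pseudocount of 10 and 2.67 to 3.98 with 1 replicate left out. In astrocytes, values of 0 to 53 (median 8.5) stood against 21 to 195 (median 83), also higher in 6 of 6 pairs. The groups overlapped in both cell types. For astrocytes the log2 fold change was 3.70 (SE 0.99) with an adjusted p = 0.197, which became 0.0474 with the replicate block, and pseudocounts of 10 and 0.1 gave 2.26 and 4.88. Astrocyte libraries also held pericyte marker RNA, at 2.09 to 8.61% of its mean in pericytes contralaterally and 1.32 to 6.44% ipsilaterally. These markers were higher ipsilaterally in 0 of 6 astrocyte pairs. The part of pericyte RNA in the astrocyte *Il6* values was not tested. In microglia, where *Il6* started from a higher level (172 to 502, median 292), the ipsilateral libraries held 298 to 1663 (median 460.5), with a log2 fold change of 1.00 (SE 0.39, adjusted p = 0.112). The highest microglial value, 1663, belonged to replicate 2, the ipsilateral microglia library with the most neutrophil marker RNA. That library held 18513 normalized counts of these markers, against 4291 to 6710 in the other 5. The next highest *Il6* value, 1065 in replicate 6, was in the library with the least (4291). Contralateral microglia held 6408 to 7956 of the same markers, so the sum does not single out neutrophils in microglia. The part of neutrophils in these values was not tested.

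*Il11*, encoding a cytokine best known from mesenchymal cells, was at 0 to 8 normalized counts in every contralateral library, whatever the cell type, and was detected ipsilaterally in all 4 cell types. Contralateral pericytes had 0 counts in 4 libraries and 8 and 6 in replicates 5 and 6. In the ipsilateral pericytes of replicates 1 to 6 the values were 48, 27, 48, 220, 377 and 548. No value overlapped, and the level of 211 ± 214 against 2.33 ± 3.67 (SD, n = 6) gave a log2 fold change of 5.92 (SE 0.99, limma adjusted p = 0.0158). The size of this change depended on the pseudocount, as contralateral values lie near the floor of 3 reads: it was 3.51 with a pseudocount of 10 and 8.17 with 0.1. The call was lost when replicate 3, 4 or 6 was left out (adjusted p of 0.0660, 0.0925 and 0.0739) and over replicates 1 to 4 (0.0696). In these fits the log2 fold changes were 5.98, 5.54, 5.84 and 5.96. Fibroblast markers were higher in 4 of 6 of these pairs (medians 2318.5 and 3208). Ipsilateral replicates 4, 5 and 6 had the highest sums (5699, 3234 and 4426, against 1338 to 3182), though not in the order of *Il11*. The part of fibroblasts in the *Il11* values was not tested.

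Astrocytes showed the same direction for *Il11*, with contralateral values of 0 to 5 and ipsilateral values of 10 to 266 (median 79). The hemispheres did not overlap, and the log2 fold change was 5.22 (SE 0.80, adjusted p = 0.0111). *Il11* was not called in astrocytes, since replicate 1 held exactly 10 ipsilateral counts and the call asked for more than 10 in all 6. Without replicate 1 it was called (adjusted p = 0.00893). The adjusted p exceeded 0.05 without replicate 2, 3, 4 or 5 (0.0513 to 0.0882). It also did so over replicates 1 to 4 (0.186) and with a minimum mean of 50 (0.131). With pseudocounts of 10 and 0.1 the log2 fold change was 2.90 and 7.09. Endothelial libraries held 0 to 3 contralaterally and 0 to 90 (median 20) ipsilaterally (log2 fold change 3.43, SE 1.07, adjusted p = 0.185). Microglia had 0 in all 6 contralateral libraries and 6 to 29 ipsilaterally, and were too low on average to be tested. Their ipsilateral mean was at least 4.55-fold higher, counted against the largest floor of 3 reads in a contralateral microglia library.

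*Lif*, whose product signals through LIFR and gp130, was a low-abundance transcript with its highest mean in ipsilateral pericytes. In contralateral pericytes the replicates gave 43, 64, 0, 66, 1 and 5 normalized counts. The ipsilateral replicates gave 243, 399, 121, 201, 510 and 189. All ipsilateral values lay above all contralateral ones. The means of 29.8 ± 31.6 and 277 ± 147 (SD, n = 6) differed by a log2 fold change of 4.43 (SE 1.04), but the adjusted p = 0.0621 missed the threshold. It also missed with the replicate block (0.0505), and passed with a pseudocount of 10 (adjusted p = 0.0234) and in the joint fit of 48 libraries (0.0168). Contralateral astrocytes had the highest contralateral mean (0 to 151, median 59). Their level was not distinguished from that of contralateral pericytes or microglia (limma adjusted p of 0.220 and 0.492). The contralateral astrocytes overlapped with the ipsilateral astrocytes (23 to 306, median 140.5, adjusted p = 0.740). Microglia held 1 to 41 contralaterally and 0 to 64 ipsilaterally (log2 fold change -1.22, SE 1.15, adjusted p = 0.509). In endothelial cells *Lif* was at 0 in all 6 contralateral libraries and between 0 and 27 ipsilaterally, which was below the level tested.

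*Osm*, the product of which binds the OSM receptor and is chiefly known from myeloid cells, was a microglial transcript. Contralateral microglia held 1298 to 3747 normalized counts (median 1817) and ipsilateral microglia 3114 to 6405 (median 4144). Ipsilateral values were higher in 6 of 6 pairs, and only the highest contralateral library reached into the ipsilateral range. The mean rose from 2084 ± 878 to 4498 ± 1221 (SD, n = 6), a log2 fold change of 1.16 (SE 0.25, limma adjusted p = 0.00828). The call held when any single replicate was left out and over replicates 1 to 4. In the same libraries the monocyte and macrophage markers were higher in 5 of 6 pairs and the microglial markers lower in 6 of 6, and their part in the *Osm* value was not tested. The call was not made in the fit of all 48 libraries (adjusted p = 0.719), where the spread of *Osm* was shared with the other cell types.

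Outside microglia, *Osm* varied strongly between replicates and was mostly higher in libraries with more microglial marker RNA. The order was not strict: among contralateral astrocyte libraries, replicate 6 held 41 normalized counts of *Osm* with microglial markers at 0.607% of their mean in microglia, and replicates 3 and 4 held 2 and 1 at 0.859% and 1.33%. In ipsilateral pericyte replicate 3, the *Osm* level was 46.3% of its mean in microglia and the marker level 21.1%. In ipsilateral endothelial cells the replicates held 527, 824, 1400, 178, 0 and 57 normalized counts. The ipsilateral pericytes held 126, 744, 2081, 1278, 0 and 13, and the ipsilateral astrocytes 153, 838, 842, 296, 23 and 31. In all 3 cell types replicates 5 and 6 were the lowest, and these were the replicates with the least microglial marker RNA. Expressed relative to ipsilateral microglia, *Osm* reached 3.96 to 31.1% in endothelial cells, 2.80 to 46.3% in pericytes and 3.40 to 18.7% in astrocytes of replicates 1 to 4. In replicates 5 and 6 it was 0 to 1.27%, 0 to 0.289% and 0.511 to 0.689%, respectively. None of the 3 differences between hemispheres was called (log2 fold changes 3.47, 4.76 and 3.25, adjusted p of 0.465, 0.267 and 0.482), and with a pseudocount of 10 their sizes were 2.64, 3.19 and 2.31. Neutrophil marker RNA was 4315 to 12926 normalized counts in the ipsilateral libraries of replicates 2 and 3 and 50 to 384 in those of replicates 5 and 6. In replicate 1 the endothelial library, with 2421 neutrophil counts and 527 of *Osm*, followed this order, but the pericyte library held 44 neutrophil counts with 126 of *Osm*, and the astrocyte library 376 with 153. The part of either cell type in the *Osm* values was not tested.

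**Figure D2:**
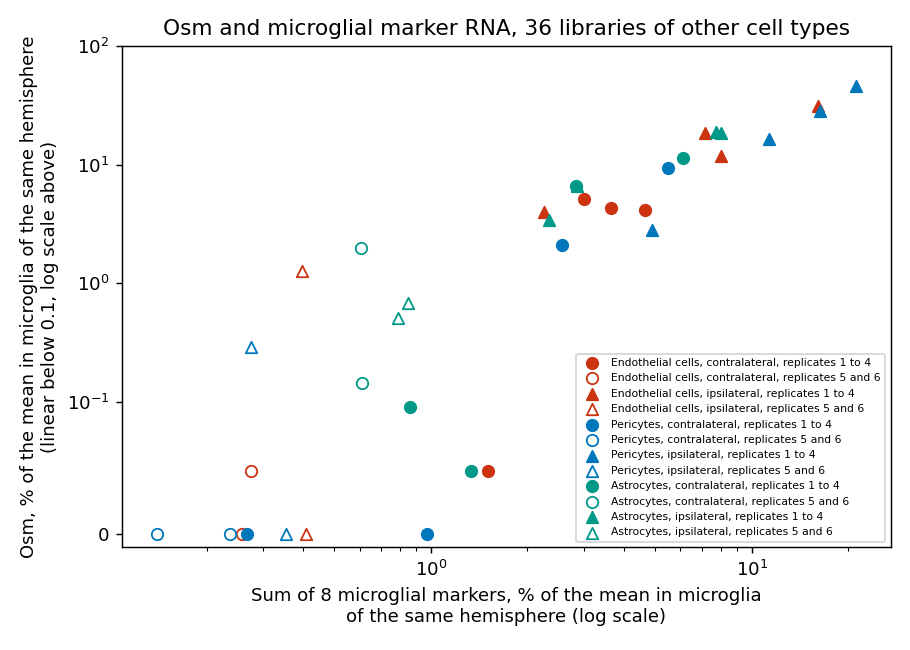
*Osm* in each endothelial, pericyte and astrocyte library (y axis, % of the mean of microglia of the same hemisphere, linear below 0.1) against the sum of 8 microglial markers in the same library (x axis, % of the mean of microglia, log scale). Circles are contralateral and triangles ipsilateral libraries, and open symbols are replicates 5 and 6, which lie at the left with *Osm* at or below 1.97%.

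*Clcf1* was likewise highest in contralateral microglia but fell there after stroke. The replicates of contralateral microglia held 450, 552, 778, 1030, 527 and 333 normalized counts. Ipsilateral microglia held 245, 56, 80, 244, 384 and 183. Each ipsilateral library was lower than its partner, and the groups overlapped only at 333 and 384. The means of 612 ± 252 and 199 ± 121 (SD, n = 6) gave a log2 fold change of -1.80 (SE 0.43, limma adjusted p = 0.0165). Leaving out replicate 3 or 4 ended the call (adjusted p of 0.0916 and 0.0542), as did the fit of all 48 libraries (0.311). The summed microglial markers were also lower in 6 of 6 of these pairs, with medians of 458903 and 261001. The monocyte and macrophage markers were higher in 5 of 6 (medians 1069 and 1409.5). The part of either in the fall was not tested. In astrocytes, 0 to 209 contralateral counts (median 12.5) stood against 94 to 259 (median 160.5) ipsilaterally, higher in 6 of 6 pairs, with a log2 fold change of 3.45 (SE 1.00, adjusted p = 0.258). Endothelial cells (0 to 50 against 0 to 128) and pericytes (0 to 70 against 17 to 156) held little *Clcf1* on either side, with adjusted p of 0.542 and 0.499.

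**Figure D3:**
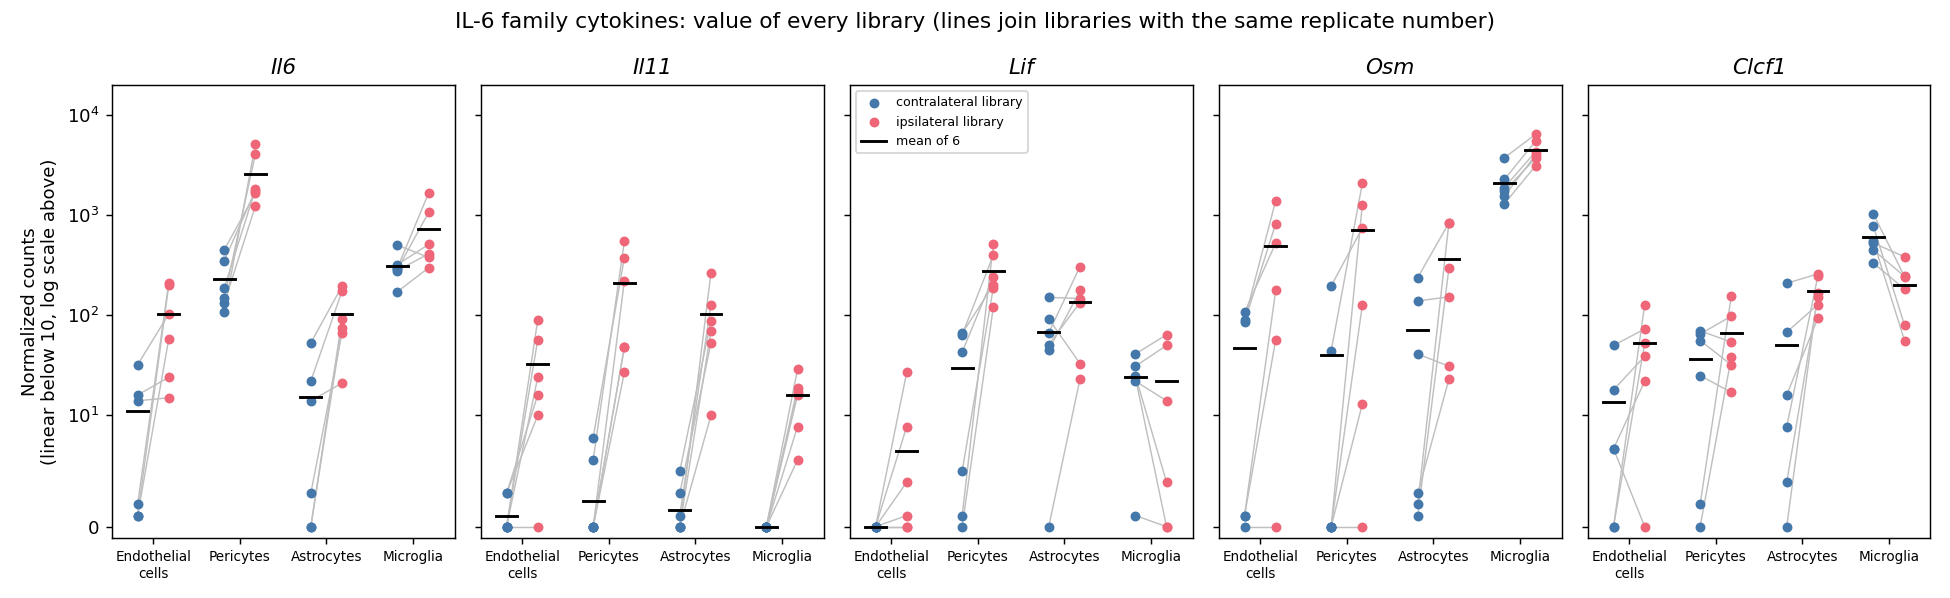
Normalized counts (y axis, linear below 10 and log scale above) of the 5 cytokines in every library, contralateral in blue and ipsilateral in red, with black bars for the mean of 6 and grey lines joining libraries of the same replicate number. *Il6*, *Il11* and *Lif* separate by hemisphere in pericytes, and *Osm* and *Clcf1* are highest in microglia.

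The ligands were distributed unevenly over the 4 cell types. When the 4 mean levels of a hemisphere were added up, microglia held 54.8% and pericytes 40.6% of *Il6* contralaterally, and pericytes 73.8% and microglia 20.4% ipsilaterally. Pericytes held 58.3% of *Il11* and 62.6% of *Lif* ipsilaterally. Microglia held 92.9% of *Osm* contralaterally and 74.1% ipsilaterally. The ipsilateral share pools unlike replicates. Outside microglia the mean *Osm* of a cell type was 532 to 1057 in replicates 1 to 4 and 6.5 to 28.5 in replicates 5 and 6. In microglia these means were 5043.5 and 3407.5. For *Clcf1* the microglial share was 85.8% contralaterally and 40.4% ipsilaterally, where astrocytes held 35.5%. These shares weigh each cell type equally and do not account for cell numbers in the tissue.

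*Il6ra*, the α-receptor for IL-6, fell in microglia without overlap between the hemispheres. The replicates of contralateral microglia held 3615, 2798, 3766, 5247, 4175 and 4672 normalized counts. Ipsilateral microglia held 2029, 565, 812, 1274, 2123 and 1306. Every ipsilateral value lay below every contralateral value. The mean fell from 4046 ± 857 to 1352 ± 628 (SD, n = 6), with a log2 fold change of -1.70 (SE 0.29, limma adjusted p = 0.00261), and the call held in each of the 14 settings in which it was computed with the column names. The summed microglial markers were lower in the same 6 pairs (medians 458903 and 261001) and the monocyte and macrophage markers higher in 5 of them (1069 and 1409.5), and the part of either in the *Il6ra* value was not tested. No change was called in endothelial cells (572 to 1039 against 217 to 819), pericytes (158 to 371 against 117 to 449) or astrocytes (18 to 276 against 53 to 262), with log2 fold changes of -0.38 (SE 0.31), -0.15 (SE 0.37) and 0.33 (SE 0.60).

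*Lifr*, the signalling chain for LIF, had a lower ipsilateral mean in all 4 cell types and was called lower in microglia. There, contralateral libraries held 1800 to 3462 (median 2589.5) and ipsilateral libraries 835 to 2072 (median 1143), lower in 6 of 6 pairs. The log2 fold change was -1.11 (SE 0.24, limma adjusted p = 0.00866), and without replicate 4 the adjusted p was 0.0507. As for *Il6ra*, the microglial markers were lower in 6 of 6 and the monocyte and macrophage markers higher in 5 of 6 of these pairs, which was not tested as a part of the *Lifr* value. Pericytes fell short of a call although ipsilateral values (349 to 2026, median 994.5) were below their contralateral partners (1160 to 3065, median 1674) in 6 of 6 pairs (log2 fold change -0.89, SE 0.40, adjusted p = 0.305). Endothelial cells held 728 to 2018 contralaterally and 542 to 1111 ipsilaterally (log2 fold change -0.81, SE 0.27, adjusted p = 0.206), which was called only without replicate 2 (-1.09, adjusted p = 0.0468). For astrocytes the log2 fold change was -0.33 (SE 0.22, adjusted p = 0.699).

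*Osmr*, encoding the signalling chain that pairs with gp130 for oncostatin M, was higher in ipsilateral astrocytes. The contralateral astrocyte replicates held 186, 233, 372, 132, 607 and 1284 normalized counts. The ipsilateral replicates held 2053, 1428, 1699, 808, 3855 and 3989. All 6 ipsilateral libraries exceeded their partners, and replicate 6 was the highest on both sides. The means were 469 ± 434 and 2305 ± 1318 (SD, n = 6), with a log2 fold change of 2.53 (SE 0.53) that missed the threshold without the replicate block (limma adjusted p = 0.0668) and passed it with the block (SE 0.21, adjusted p = 0.000581). It also passed without replicate 6 (adjusted p = 0.0183) and over replicates 1 to 4 (0.00792), but not when any of the other 5 replicates was left out (adjusted p of 0.116 to 0.321) or in the joint fit of 48 libraries (0.0819). The library with the lowest *Osmr* on each side, replicate 4, was the library with the most oligodendrocyte marker RNA (283903 contralaterally and 350941 ipsilaterally), and replicate 6, the highest, had the least (31112 and 59775); the part of this mixture in the *Osmr* values was not tested. The other replicates did not all follow that order, since contralateral replicates 1 and 5 held 128050 and 129237 marker counts with 186 and 607 of *Osmr*.

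The other cell types showed no called change of *Osmr*. Pericytes held 1915 to 2701 contralaterally and 2368 to 3930 ipsilaterally, higher in 5 of 6 pairs (log2 fold change 0.47, SE 0.15, adjusted p = 0.154). Endothelial cells held 763 to 3393 and 879 to 3587 (log2 fold change 0.16, SE 0.39, adjusted p = 0.919). In microglia *Osmr* was low, with 0 to 61 contralaterally and 2 to 113 ipsilaterally (adjusted p = 0.575).

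*Il6st*, the gene for the shared chain gp130, was abundant in every cell type, and its hemisphere difference was not called in any of them. Pericytes had the highest values, 3681 to 9129 contralaterally (median 5370) and 6535 to 10490 ipsilaterally (median 8345.5), higher in 5 of 6 pairs with a log2 fold change of 0.58 (SE 0.21, adjusted p = 0.210). Microglia held 1177 to 2054 and 2002 to 2652, higher in 6 of 6 pairs (log2 fold change 0.44, SE 0.17, adjusted p = 0.10). Endothelial cells and astrocytes had log2 fold changes of 0.33 (SE 0.38) and 0.24 (SE 0.25). Ipsilateral endothelial replicate 1 held 1048 counts of *Il6st* against 3788 to 5225 in the other 5, and it was also the lowest of the 6 for *Il6ra* (217), *Lifr* (542) and *Osmr* (879) and the highest for *Il11ra1* (610). Without that replicate the endothelial log2 fold change of *Il6st* was 0.67 and again not called.

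*Il11ra1*, the α-receptor for IL-11, had no called change. Astrocytes held 510 to 1053 contralaterally and 325 to 777 ipsilaterally, lower in 6 of 6 pairs (log2 fold change -0.49, SE 0.24, adjusted p = 0.570). Microglia held 406 to 547 and 511 to 693, higher in 6 of 6 pairs (log2 fold change 0.32, SE 0.16, adjusted p = 0.202). The values in pericytes (-0.21, SE 0.18) and endothelial cells (0.07, SE 0.23) were smaller than or similar to their errors.

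**Figure D4:**
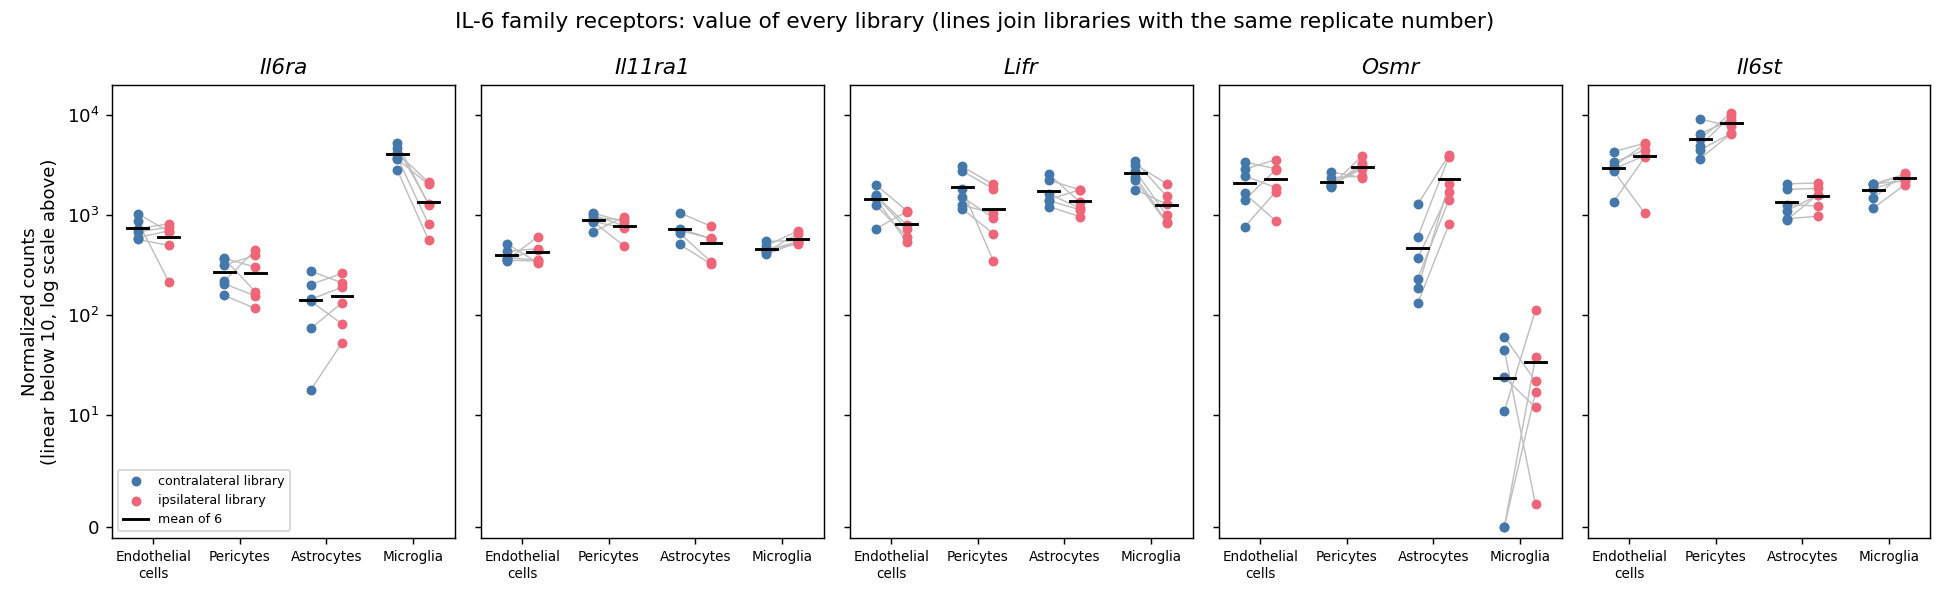
Normalized counts (y axis, linear below 10 and log scale above) of the 5 receptor chains in every library, contralateral in blue and ipsilateral in red, with black bars for the mean of 6 and grey lines joining libraries of the same replicate number. *Il6ra* separates by hemisphere in microglia, *Osmr* is higher ipsilaterally in all 6 astrocyte pairs and near 0 in microglia.

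To compare receptors with each other, levels were divided by the exon length of the gene, and the following values are normalized counts per kb of exon in contralateral libraries. In pericytes *Il6st* led with 519 ± 173 (SD, n = 6), above *Il11ra1* (201 ± 29.5) in 6 of 6 libraries. *Il11ra1*, *Lifr* (179 ± 74.4) and *Osmr* (178 ± 25.9) were of similar size there, while *Il6ra* was low at 31.7 ± 10.5. Endothelial cells had *Il6st* at 267 ± 86.4 and *Osmr* at 173 ± 81.5, the former higher in 5 of 6 libraries, and *Il11ra1* (89.7 ± 14.7) and *Il6ra* (86.8 ± 20.6) at the lower end. Astrocytes had *Il11ra1* (163 ± 39.8), *Lifr* (162 ± 49.4) and *Il6st* (121 ± 43.5) close together and *Osmr* at 38.7 ± 35.8.

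In contralateral microglia the order of receptors per kb was another. *Il6ra* led with 468 ± 99.2, above *Lifr* (245 ± 57.3) in 6 of 6 libraries, followed by *Il6st* (159.6 ± 32.9) and *Il11ra1* (104 ± 11.3), with *Osmr* at 1.94 ± 2.07. In ipsilateral microglia *Il6st* (213 ± 22.4) was above *Il6ra* (156 ± 72.7) in 4 of 6 libraries. In ipsilateral astrocytes *Osmr* reached 190.3 ± 109, above *Il6st* (140.4 ± 36.6) in 3 of 6 libraries.

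**Figure D5:**
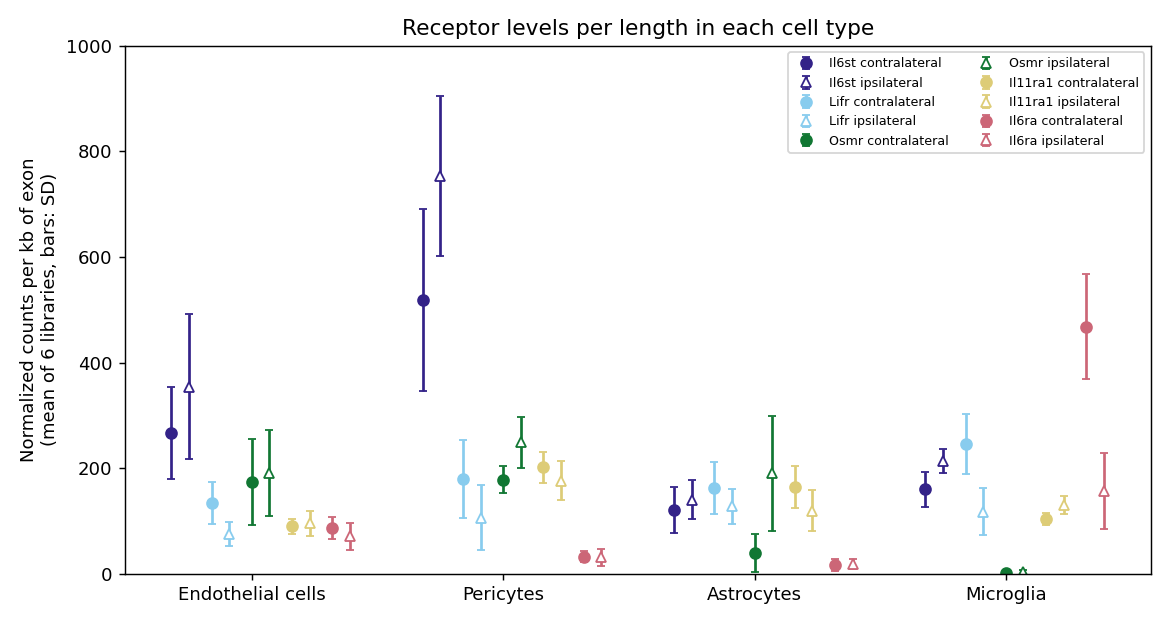
Mean normalized counts per kb of exon (y axis, bars show the SD of 6 libraries) of the 5 receptor chains in the 4 cell types, filled circles contralateral and open triangles ipsilateral. *Il6st* is highest in pericytes, *Il6ra* in contralateral microglia (468), and *Osmr* in microglia lies near 0.

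Baseline levels of the members differed between cell types in 34 of 60 contralateral comparisons (10 members in 6 pairs of cell types, limma over 48 libraries, same limits on the adjusted p and the fold difference). The counts were 5 of 10 between endothelial cells and pericytes (34.6% of 15003 genes were called), 5 of 10 between endothelial cells and astrocytes (49.1%) and 8 of 10 between endothelial cells and microglia (41.6%). Between pericytes and astrocytes 4 of 10 differed (45.4%), between pericytes and microglia 6 of 10 (48%) and between astrocytes and microglia 6 of 10 (50.7%). *Il6ra* differed in all 6 pairs, in the order microglia, endothelial cells, pericytes and astrocytes. *Osmr* differed in 5, with pericytes (2159 ± 314) and endothelial cells (2094.5 ± 987) not distinguished (log2 difference -0.19 for endothelial cells minus pericytes, SE 0.72) and both above astrocytes and microglia. *Il6st* also differed in 5, with pericytes above endothelial cells and these above microglia and astrocytes, of which the last 2 were not distinguished.

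Among the ligands, *Il6* in contralateral microglia (310 ± 107) and pericytes (229.7 ± 139) did not differ beyond the spread (log2 difference -0.56 for pericytes minus microglia, SE 0.77). Both were above astrocytes (15.3 ± 20.4) and endothelial cells (11.0 ± 12.3). *Osm* and *Clcf1* were higher in microglia than in each of the other 3 types, with log2 differences, as the other type minus microglia, of -8.75 to -6.77 for *Osm* and -6.51 to -5.11 for *Clcf1*. *Lif* was lower in endothelial cells than in each other type, and *Il11* differed in none of the 6 pairs. *Lifr* differed between endothelial cells and microglia (log2 difference -0.91 for endothelial cells minus microglia, SE 0.31, adjusted p = 0.0144). With the replicate block it also differed between astrocytes and microglia (adjusted p = 0.0299, where 51.9% of genes were called), in place of 0.0896 without it. *Il11ra1* did not differ between pericytes and astrocytes or between endothelial cells and microglia.

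Whether the stroke effect itself differed between cell types was tested in the same fit, and 0 of 60 comparisons passed in limma, while 16 had an unadjusted p under 0.05, as had 5.45 to 12.7% of all genes depending on the pair of cell types. Over all genes these tests called 0.0267% (endothelial cells and pericytes), 0.06% (endothelial cells and astrocytes), 0.273% (endothelial cells and microglia), 0.00667% (pericytes and astrocytes), 0.727% (pericytes and microglia) and 0.293% (astrocytes and microglia). The smallest adjusted p, 0.0664, was that of *Lif* in pericytes against microglia (log2 difference of effects 5.66, SE 1.55). For *Il6* in pericytes against microglia the difference was 2.50 (SE 1.09, adjusted p = 0.326). Hence a call in a single cell type, such as *Il6ra* in microglia, is not shown to be particular to that cell type.

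Further genes of the pathway were described from a list of 20, comprising other cytokines and receptors of the family, kinases, STAT factors and their regulators. Of these, 16 to 18 were tested per cell type, and 2 calls were made in all, 1 of 17 in astrocytes (0.341% of all genes were called there) and 1 of 18 in microglia (10.6%). *Stat3*, the main transcription factor of the pathway, rose in astrocytes from 2938 ± 625 to 5365 ± 420 (SD, n = 6), without overlap, by a log2 fold change of 0.90 (SE 0.17, limma adjusted p = 0.0395). *Pias3*, an inhibitor of STAT3, fell in microglia from 298 ± 76.2 to 142 ± 58.4 (log2 fold change -1.16, SE 0.32, adjusted p = 0.0317, or 0.0610 with the replicate block). In the same pairs the microglial markers were lower in 6 of 6 and the monocyte and macrophage markers higher in 5 of 6. The part of either in the *Pias3* value was not tested. In endothelial cells and pericytes 0 of the 16 and 17 genes tested were called by limma, with 1 and 0 at an unadjusted p under 0.05 (11.9% and 15.4% of all genes).

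Of 18 genes known to respond to the pathway, all of which were tested in each cell type, 5 were called in microglia, 4 in astrocytes, 2 in pericytes and 0 in endothelial cells (where 8 had an unadjusted p under 0.05 in limma, against 11.9% of genes), and each of these calls was higher ipsilaterally, beside 4.29%, 0.334%, 0.441% and 0.362% of all genes called higher. Their median log2 fold changes in that order were 0.18, 1.36, 0.78 and 0.65, beside -0.18, -0.06, -0.04 and -0.03 over all genes. *Lcn2*, coding for the acute-phase protein lipocalin-2, rose in pericytes (log2 fold change 2.58, SE 0.42), astrocytes (3.89, SE 0.51) and microglia (3.72, SE 0.65), with adjusted p of 0.0153, 0.00379 and 0.00287. Endothelial *Lcn2* averaged 8281 contralaterally and 25378 ipsilaterally, higher in 6 of 6 pairs but not called without the block (limma adjusted p = 0.272). Endothelial marker RNA, as a percentage of its mean in endothelial cells, was 1.06 to 4.04% in contralateral and 1.88 to 9.27% in ipsilateral pericyte libraries. In microglia libraries it was 0.340 to 1.62% and 0.362 to 3.44%. The part of endothelial RNA in the *Lcn2* values was not tested. Neutrophil markers were higher ipsilaterally in 6 of 6 pairs of pericytes (medians 27 and 2873.5) and of astrocytes (211 and 1125.5), and their part in the calls of responsive genes was not tested. *Bcl3*, a nuclear regulator of NF-κB, rose in pericytes (2.07, SE 0.37, adjusted p = 0.0214) and astrocytes (2.49, SE 0.38, adjusted p = 0.0109). *Timp1*, an inhibitor of matrix proteases, rose in astrocytes (3.08, SE 0.44) and microglia (3.37, SE 0.75). Ipsilateral *Timp1* averaged 81.7 normalized counts in microglia, 604 in astrocytes and 9649 in pericytes. Pericyte markers were higher ipsilaterally in 5 of 6 microglia pairs (medians 308 and 504.5) and in 0 of 6 astrocyte pairs (2684.5 and 1818). Ipsilaterally they were at 0.181 to 3.31% of their mean in pericytes in microglia libraries and at 1.32 to 6.44% in astrocyte libraries. The part of pericyte RNA in the microglial and astrocyte *Timp1* values was not tested. *Serpina3n*, a serine protease inhibitor of reactive astrocytes, rose in astrocytes (2.15, SE 0.35). In microglia *Socs2* (2.45, SE 0.71), the intermediate filament gene *Vim* (3.04, SE 0.42) and the chemokine gene *Ccl2* (1.84, SE 0.34) also rose; the monocyte and macrophage markers were higher in 5 of 6 of these pairs, and their part was not tested.

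With the replicate block, the number of these responsive genes called changed from 0 to 2 in endothelial cells (*Timp1* and *Lcn2*), from 2 to 4 in pericytes (*Timp1* higher and *Vim* lower in addition) and from 4 to 10 in astrocytes, while it was 5 in microglia in both fits. Over all genes the share called with the block was 11% in microglia, 1.59% in astrocytes, 1.66% in pericytes and 0.551% in endothelial cells. *Socs3*, the feedback inhibitor, was not called in any cell type, with log2 fold changes of 1.07 (SE 0.51) in endothelial cells, -0.18 (SE 0.36) in pericytes, 1.14 (SE 0.33) in astrocytes and -0.38 (SE 0.45) in microglia. Many of these genes respond to other signals too, and the list does not show which signal acted.

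Genes with the most similar profile over the 48 libraries were sought for the members by Pearson correlation of log2(normalized count + 1). The libraries are not independent points, since they share cell types, hemispheres and pools, and the values are descriptive. *Osm* was closest to *Tlr13* (r = 0.96), *Cybb* (0.95) and *Fcgr4* (0.95), and *Osmr* to *Cttn* (0.94), *Hspb8* (0.93) and *Angptl4* (0.93). *Il6ra* was closest to *Cmtm6* (0.92) and *Il6st* to *Shc1* (0.91). *Il11ra1* was closest to *Asb5* (0.84), *Il11* to *Tnc* (0.81), *Clcf1* to *Orai2* (0.79), *Lif* to *Oacyl* (0.77) and *Lifr* to *Maml2* (0.74). Between members the highest value was 0.59, for *Osm* and *Clcf1*, and the lowest was -0.58, for *Osm* and *Osmr*.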

How the data were processed

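Bulk RNA of sorted cells was sequenced in 48 libraries (SMART-Seq HT, NextSeq 500). Per the methods and the submitters' processing notes, the authors checked reads with FastQC, trimmed them with Trimmomatic 0.38, aligned them to GRCm38 with STAR 2.6.1d and counted them on genes with featureCounts 1.6.3, leaving out reads that overlapped several genes or mapped to several places. The values the authors deposited are counts normalized with DESeq2 1.18.1 and rounded to whole numbers, treated here as a score. They are not raw counts, so no count model was run.

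Groups were taken from the column names, given that titles and column names disagreed for 12 libraries. Each hemisphere comparison was fitted with limma 3.58.1 in R 4.3.3 (trend) on log2(normalized count + 1), for genes averaging 10 or more, over 12 libraries, two-sided, with Benjamini-Hochberg adjustment over all genes tested. A joint fit over the 48 libraries gave the tests of levels and of effect differences between cell types. P-values measure the spread between libraries, each made from a pool of mice. Without the replicate block, the 2 hemispheres of a pool were treated as independent. In the joint fit the same held for the cell types of a pool. The code was tested on simulated data. The reads per library were estimated from the step between low values, and floors and read estimates cover counting error only. Promoter sequences are from RefSeq (GRCm38.p6), and exon lengths are from GENCODE M21. Summaries and plots used Python 3.11.15, pandas 2.3.3 and matplotlib 3.10.9.

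All 10 members were named, together with genes of the 2 pathway lists that were called in at least 1 cell type (*Socs3* was added as the known feedback inhibitor). The members and lists were chosen with earlier results of these data known. Because both hemispheres of a replicate came from the same pool of mice, the replicate number pairs the libraries: deviations from the group means of equal numbers had mean correlations of 0.21, 0.21, 0.37 and 0.12 in endothelial cells, pericytes, astrocytes and microglia, against -0.04, -0.04, -0.07 and -0.02 for unequal numbers. The alternatives were pseudocounts of 0.1 and 10, a replicate block, the joint fit, no filter or a minimum mean of 50, other scaling, replicates 1 to 4 only, each replicate left out and the cell types of the titles. The profile most similar to that of *Il6* is not reported here.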

Additional observations from a re-analysis of the deposited data

Results flagged for a closer look

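Of 78 groups of 6 libraries, 6 held a library far from the other 5 by Dixon's criterion, which chance gives in about 1 in 20 groups. *Lif* was at 27 in replicate 4 of ipsilateral endothelial cells, with 9 as the next highest value. *Osm* was at 196 in replicate 2 of contralateral pericytes, with 44 as the next. *Clcf1* was at 50 in replicate 3 of contralateral endothelial cells (next highest 18) and at 209 in replicate 6 of contralateral astrocytes (next highest 68). *Osmr* was at 113 in replicate 6 of ipsilateral microglia, with 38 as the next. *Il6st* was at 1048 in replicate 1 of ipsilateral endothelial cells, below the 3788 to 5225 of the other libraries. None of these values is in a hemisphere comparison that was called, but the contralateral values of *Osm* and *Clcf1* are in groups whose level was called lower than that of microglia. Their causes were not tested.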

How the results depend on the processing

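No called member changed sign under the 14 settings with the column names. Of the calls, *Il6* in pericytes and *Il6ra* in microglia were made under all 14 settings with the column names. Counts of members regulated depended on the setting as follows. In endothelial cells the joint fit of 48 libraries gave 1 (*Il6*) in place of 0, and leaving out single replicates gave 0 to 1. In pericytes replicates 1 to 4 gave 1 in place of 2, single replicates left out gave 1 to 2, and with pseudocount 10 or the joint fit *Lif* was added. In astrocytes the replicate block gave 2 in place of 0, the joint fit 1, replicates 1 to 4 gave 1, and single replicates left out gave 0 to 1. In microglia the joint fit gave 2 in place of 4, and single replicates left out gave 2 to 4. For the level differences between cell types the leave-one-out range was 32 to 33 beside 34. The differences of stroke effects numbered 2 in place of 0 with pseudocount 10 and remained 0 when replicates were left out. With the cell types of the sample titles, 7 members in pericytes and 10 in microglia were called, among 6219 and 6179 genes, since different cell types were then compared, and directions under the titles are not given. Except where noted, the cause was not tested.

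The replicate block changed the members called only in astrocytes, where *Il6* and *Osmr* were added, and raised the level differences called from 34 to 35 by adding *Lifr* in astrocytes against microglia. Over all genes, calls in endothelial cells went from 65 to 262 in the joint fit, 36 without a filter, 11 over replicates 1 to 4 and 10 to 84 with 1 replicate left out. In pericytes they went from 139 to 226 with the block, 312 in the joint fit, 84 without a filter, 31 over replicates 1 to 4 and 11 to 112 with 1 left out. In astrocytes they went from 52 to 242 with the block, 112 in the joint fit, 32 with a mean of at least 50, 34 with pseudocount 0.1 and 12 to 61 with 1 left out. In microglia they went from 1404 to 787 over replicates 1 to 4 and 557 to 1909 with 1 left out. Calls of differing effects went from 208 to 451 with pseudocount 10, 419 without a filter, 352 with the block, 135 over replicates 1 to 4 and 25 to 179 with 1 left out. A count model as an alternative to limma was not run, since raw counts were not used here. Low values of the ligands (*Il11*, *Lif* and *Clcf1*, and *Il6* and *Osm* in the cell types where they are low) rest on few reads, and their fold changes depend on the pseudocount.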
